A study of Mus musculus with 12 samples.

Results

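The 48 genes described here encode the proteins that copy nuclear DNA: the factors that load and start the replicative helicase, the polymerases and primase, the sliding clamp and its loader, the proteins that handle single strands and nicks, and those that assemble chromatin on, or protect, the fork. They were taken from a list of replication genes. Each was read from an array probe set annotated to that gene alone, and where a gene had several, from the one with the highest mean over all arrays. All 48 had such a probe set, out of 19309 genes measured in this way. Pcna had 2, whose values lay within 0.04 of each other on every array (log2), and the others 1 each.

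Replication is prepared before it starts. The origin recognition complex (ORC, Orc1 to Orc6) marks origins and, with Cdc6 and Cdt1, loads the MCM2-7 helicase in an inactive form. In S phase the kinase Cdc7 with its activator Dbf4, together with Mcm10, Cdc45 and the GINS complex, turns it into a moving helicase, behind which polymerase alpha-primase lays primers and polymerases epsilon and delta extend them. Thymocytes divide rapidly during part of their normal development, and MYC is known to drive cells into the cell cycle, so the same machinery serves both the normal tissue and the tumors.

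RNA came from the thymus of FVB/N mice and was measured on 12 single-channel arrays. Normal thymocytes were wild type, taken 24 days after birth (n = 3). Control tumors were T-cell lymphomas induced by MYC in animals labelled wild type, taken at the terminal stage (n = 5). Deficient tumors were terminal MYC-induced lymphomas of mice in which Dnmt3a, a DNA methyltransferase that sets new methylation, had been deleted in the blood-forming lineage (n = 4). Neither the driver of MYC nor the means of deletion was named. Whether the arrays of a group come from different mice was not stated either, and the spread behind each p-value may then be partly technical. Age is given for normal thymocytes only, and no batch is given, so neither can be told apart from group.

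Dnmt3a read 9.33 to 9.63 in normal thymocytes, 8.19 to 9.57 in control tumors and 7.19 to 7.62 in deficient tumors (log2 signal). Whether its probes lie in the deleted part is not given. Cd3e, Cd3g and Thy1, which define T cells, read 10.35 to 12.54 on all arrays. They are part of a list of 11 measured T cell markers. Of these 11, 6 were called lower in each tumor group than in normal thymocytes and 0 higher. Of all genes, 11.3% were called lower in control tumors and 19.0% in deficient tumors. Summed marker levels of other cells stood apart on single control tumors: the mean of 10 neutrophil markers was 8.08 and 8.11 in control tumors 3 and 4 against 5.51 to 7.0 on the other arrays, and that of 8 adipocyte markers 8.51 in control tumor 2 against 5.24 to 5.71. In bulk RNA, fewer cells of a type and less RNA per cell cannot be told apart. Control tumors 1 and 2 each stood closer to the deficient tumors (mean r over genes 0.972 and 0.971) than to the rest of the control tumors (0.956 and 0.951). The latter means include the r between control tumors 1 and 2. Their Dnmt3a signals of 8.58 and 8.52 were above every deficient tumor, as in the other control tumors. Their upper quartile of signal was 8.51 to 8.54, as in deficient tumors (8.50 to 8.60), and that of control tumors 3 to 5 was 8.25 to 8.30, as against 8.13 to 8.21 in normal thymocytes.

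Against normal thymocytes, many replication genes were called higher in tumors, and none was called lower in the fit of all 3 groups. In control tumors 23 of 48 rose and 0 fell, where 13.0% of all genes rose and 11.3% fell (limma, adjusted p under 0.05 over all genes). In deficient tumors 26 rose and 0 fell, where 18.7% and 19.0% of all genes did. At an unadjusted p under 0.05, 3 members were lower, Mcm3, Rfc2 and Fen1, against 25.1% of all genes. In a limma fit of only the 2 groups compared, these 3 were called lower (adjusted p = 0.0134, 0.00318 and 0.00657). The median difference of the members was 0.55 in control and 0.76 in deficient tumors on the log2 scale, and that of all genes -0.08 and -0.10. The median in deficient tumors was 0.44 after a second quantile normalization and 0.50 after cyclic loess. A rise of at least 2-fold was called for 16 members in control and 19 in deficient tumors, and for 1470 and 2286 of all 19309 genes. Both comparisons use the same 3 normal arrays. Mki67, a marker of dividing cells, was 7.80 to 9.17 in normal thymocytes, 9.93 to 11.45 in control tumors and 11.39 to 11.63 in deficient tumors. Mki67 and the upper quartile of signal move with the differences between groups, and their part in the results was not tested.

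**Figure D1:**
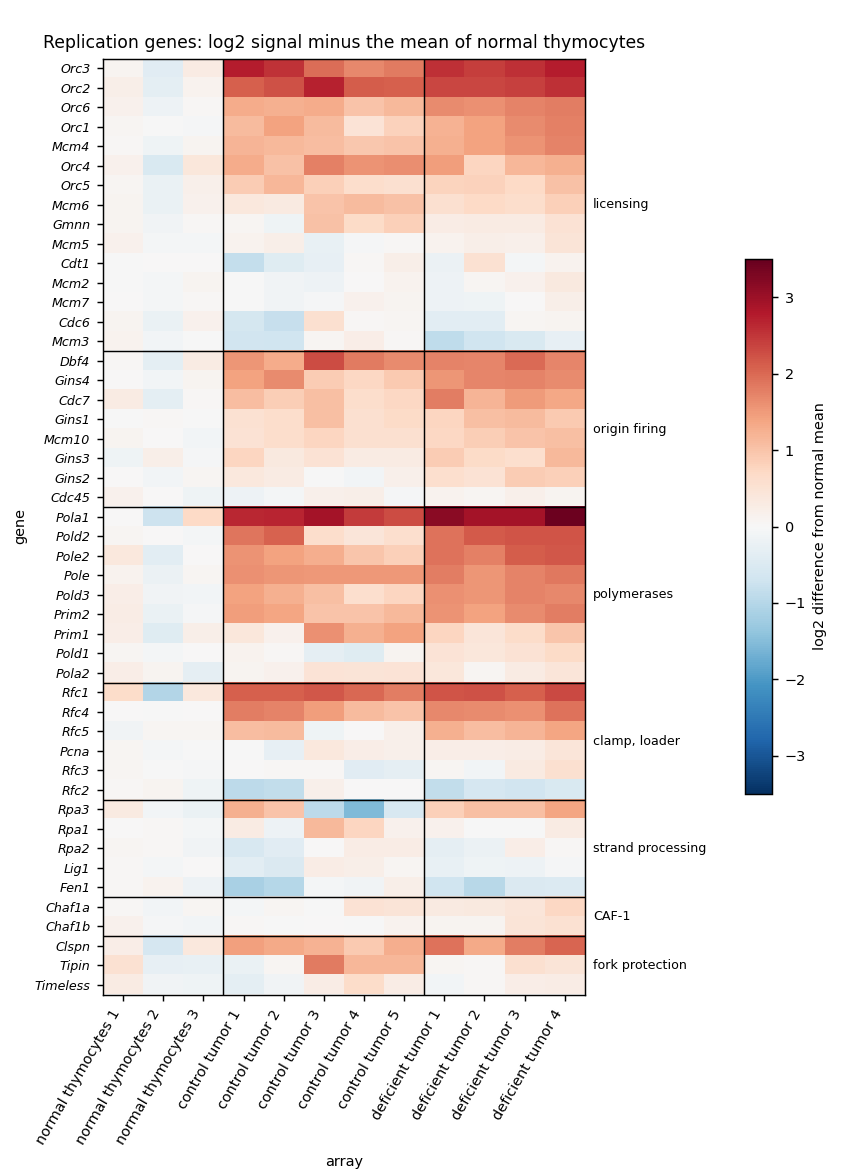
Log2 signal of each of the 48 replication genes on each of the 12 arrays, minus the mean of the 3 normal thymocyte arrays (colour; rows are genes grouped by role, columns are arrays, black lines part the roles and groups). Orc2, Orc3, Pola1 and Rfc1 are high on every tumor array, while Mcm2, Mcm7 and Cdc45 stay near the normal mean; Rfc2, Fen1, Rpa3, Rfc5 and Tipin divide control tumors 1 and 2 from control tumors 3 to 5.

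The rise was uneven within complexes. All 6 ORC subunits were higher in each tumor group, but 2 of 6 MCM2-7 subunits. Of the polymerase subunits, 7 of 9 were higher in each tumor group, against 0 of 5 single-strand, flap and ligation genes and 0 of 2 subunits of the histone chaperone CAF-1. These counts were the same after median centring, apart from Chaf1a, which was then higher in deficient tumors (0.53, adjusted p = 0.0333). A second quantile normalization kept all 6 ORC genes and left 6 of 9 polymerase subunits in each tumor group, 4 and 5 of 8 firing factors, and Mcm4 alone of MCM2-7 in deficient tumors. There and after cyclic loess, Mcm3, Rfc2 and Fen1 were lower in deficient tumors (adjusted p = 0.0300, 0.0286 and 0.0425, then 0.0134, 0.0265 and 0.0376).

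**Figure D2:**
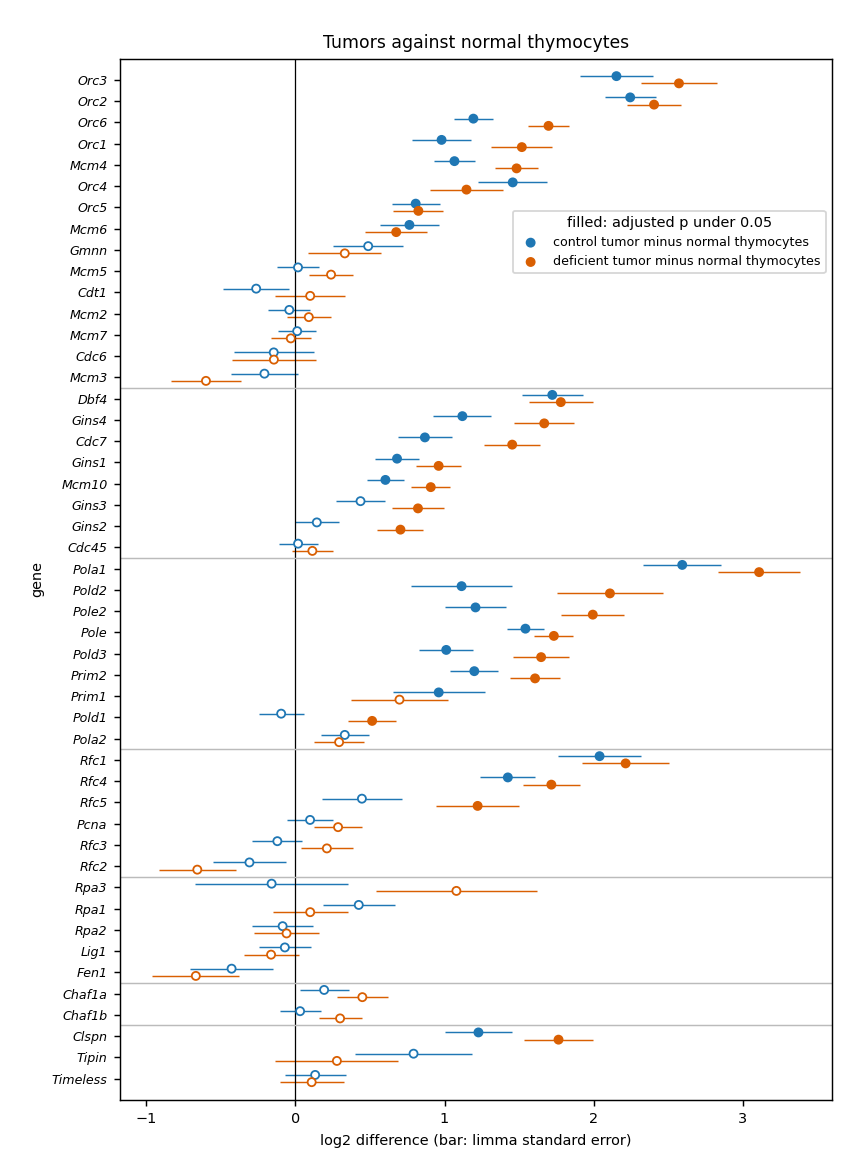
Log2 difference of control tumors (blue) and deficient tumors (orange) from normal thymocytes for each replication gene (x axis; bars are limma standard errors; filled points have an adjusted p under 0.05; grey lines part the roles). The filled points lie to the right of 0, up to 2.59 and 3.11 for Pola1, and Mcm2, Mcm7 and Cdc45 lie near 0 in both.

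Since members moved unequally, promoters are shown for Pola1, Orc3 and Orc2, with the largest mean difference from normal thymocytes, and for Mcm7, Mcm2 and Rfc3, with the mean difference nearest 0. Each is 300 bases from RefSeq (GRCm38.p6), from 250 before to 50 after an annotated start, read 5′ to 3′ on the gene's strand. Capitals mark 3 motifs searched on both strands: TTTNNCGC, part of the site of the E2F factors that drive S-phase genes (GCGNNAAA on the other strand); CACGTG, the E-box that MYC binds with MAX; and CCAAT, the box of NF-Y (ATTGG on the other strand).
Pola1 promoter, chrX:93632106-93632405, minus strand: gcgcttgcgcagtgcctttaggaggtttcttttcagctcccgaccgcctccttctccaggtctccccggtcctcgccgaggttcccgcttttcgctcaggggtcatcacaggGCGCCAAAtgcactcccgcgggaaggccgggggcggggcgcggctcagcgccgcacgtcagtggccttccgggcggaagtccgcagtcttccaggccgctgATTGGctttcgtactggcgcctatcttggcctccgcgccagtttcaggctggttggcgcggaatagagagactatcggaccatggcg
Orc3 promoter, chr4:34614893-34615192, minus strand: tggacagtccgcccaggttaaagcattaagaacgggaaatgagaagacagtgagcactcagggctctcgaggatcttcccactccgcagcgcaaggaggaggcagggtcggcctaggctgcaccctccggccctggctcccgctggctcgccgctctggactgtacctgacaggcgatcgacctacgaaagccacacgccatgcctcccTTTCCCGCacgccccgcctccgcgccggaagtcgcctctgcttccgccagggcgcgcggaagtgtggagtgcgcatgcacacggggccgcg
Orc2 promoter, chr1:58505060-58505359, minus strand: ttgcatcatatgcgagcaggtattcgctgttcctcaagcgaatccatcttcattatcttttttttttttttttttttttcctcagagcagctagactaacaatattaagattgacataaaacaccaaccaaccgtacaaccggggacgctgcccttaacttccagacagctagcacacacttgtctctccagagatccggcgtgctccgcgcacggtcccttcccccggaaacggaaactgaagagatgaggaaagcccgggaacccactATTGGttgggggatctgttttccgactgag
Mcm7 promoter, chr5:138171834-138172133, minus strand: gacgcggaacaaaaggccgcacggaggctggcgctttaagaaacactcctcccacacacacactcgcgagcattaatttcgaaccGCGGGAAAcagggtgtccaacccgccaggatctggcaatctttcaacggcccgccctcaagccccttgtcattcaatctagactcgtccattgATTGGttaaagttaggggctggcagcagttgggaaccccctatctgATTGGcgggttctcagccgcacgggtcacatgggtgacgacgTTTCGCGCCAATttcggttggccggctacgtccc
Mcm2 promoter, chr6:88898731-88899030, minus strand: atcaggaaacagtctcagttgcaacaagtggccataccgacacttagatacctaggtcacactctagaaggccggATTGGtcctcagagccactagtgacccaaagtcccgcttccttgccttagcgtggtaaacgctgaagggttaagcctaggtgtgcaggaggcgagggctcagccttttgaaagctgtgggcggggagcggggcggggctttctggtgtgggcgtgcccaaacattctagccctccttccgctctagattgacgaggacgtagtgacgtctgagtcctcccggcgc
Rfc3 promoter, chr5:151651159-151651458, minus strand: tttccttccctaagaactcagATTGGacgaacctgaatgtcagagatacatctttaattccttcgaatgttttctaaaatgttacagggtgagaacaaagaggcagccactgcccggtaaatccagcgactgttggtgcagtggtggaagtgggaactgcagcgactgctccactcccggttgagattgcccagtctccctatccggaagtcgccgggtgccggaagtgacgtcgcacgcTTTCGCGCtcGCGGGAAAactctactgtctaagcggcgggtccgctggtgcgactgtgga
The E2F letters occurred in the promoters of Pola1 and Orc3 but also in those of Mcm7 and Rfc3, with 2 matches each, and in neither Orc2 nor Mcm2. In Mcm7 a TTTNNCGC match and a CCAAT match share 1 base. CACGTG was in none of the 6. The table held a promoter for 39 of the 48 genes. TTTNNCGC was in 33.3% of their 48 promoters against 5.17% of all 32851, CACGTG in 14.6% against 7.15%, and CCAAT in 52.1% against 37.4%. Among the 21 of these genes that were higher in deficient tumors or in control tumors, 9 had TTTNNCGC and 2 CACGTG, and among the 18 that were higher in neither, 7 and 5. A match is a description of the letters and not a bound site.

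Among licensing factors, ORC stood highest over normal thymocytes. Orc2, the subunit that with Orc3 forms part of the core of the ring, read 7.18, 6.63 and 7.10 in normal thymocytes, 9.06, 9.21, 9.65, 9.08 and 9.07 in control tumors, and 9.30, 9.32, 9.36 and 9.52 in deficient tumors. Every tumor array was above every normal array by more than the spread within any group. The difference was 2.24 ± 0.17 (limma SE) in control and 2.40 ± 0.18 in deficient tumors, or 4.74-fold and 5.29-fold (adjusted p = 2.62e-06 and 1.26e-06). Orc3 read 7.50, 7.03 and 7.71, then 10.16, 9.96, 9.38, 9.09 and 9.24, then 9.96, 9.83, 9.98 and 10.17 in the same order of groups. Values of control tumors 1 and 2 lay among those of the deficient tumors and the other 3 below them, and all were above normal (4.45-fold and 5.94-fold, adjusted p = 3.49e-05 and 7.96e-06).

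The other ORC genes rose less. Orc6, which takes part in loading the helicase, rose by 1.19 ± 0.13 in control and 1.70 ± 0.13 in deficient tumors. Orc1, the ATPase subunit that is degraded in many cells after S phase begins, rose by 0.98 ± 0.20 and 1.52 ± 0.20. Orc4, another ATPase-fold subunit, rose by 1.46 ± 0.23 and 1.15 ± 0.24, with deficient tumor 2 lowest of the tumors at 7.75. Orc5 had the smallest rise of the complex, 0.81 ± 0.16 and 0.82 ± 0.17. The 6 genes were called higher in both comparisons under every other setting tried.

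The MCM2-7 genes moved unequally, although their products form 1 ring. In normal thymocytes their mean signals were 8.81 (Mcm4) to 10.92 (Mcm7), and those of the ORC genes 6.56 (Orc1) to 7.89 (Orc6). Gmnn, at 6.72, was not called in either tumor group. Whether the level of signal bears on the size of a rise was not tested. Mcm4 read 8.86, 8.67 and 8.90 in normal thymocytes, 9.99, 9.94, 9.90, 9.76 and 9.80 in control tumors and 10.05, 10.21, 10.39 and 10.54 in deficient tumors. The 3 groups did not overlap, and the rise over normal was 1.07 ± 0.14 and 1.48 ± 0.14 (adjusted p = 9.94e-05 and 6.94e-06). Mcm6 read 10.26, 9.91 and 10.29, then 10.53, 10.48, 11.16, 11.25 and 11.18, then 10.71, 10.86, 10.76 and 10.99. All tumors were above normal, with control tumors 1 and 2 lowest among them and control tumors 3 to 5 highest (0.76 ± 0.20 and 0.68 ± 0.21, adjusted p = 0.0124 and 0.0210). The Mcm6 call was lost without normal thymocytes 2 in both comparisons (adjusted p = 0.0746 and 0.0972), without deficient tumor 4 in the second (0.0570), and in deficient tumors under another quantile normalization (0.0940) and under cyclic loess (0.069 in control and 0.242 in deficient tumors).

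Mcm2, Mcm5 and Mcm7 showed no called difference. Mcm2 read 10.87, 10.83 and 10.97 in normal thymocytes, 10.87, 10.76, 10.71, 10.90 and 11.02 in control tumors, and 10.70, 10.95, 11.03 and 11.24 in deficient tumors, so the groups overlapped throughout. Its difference from normal was -0.04 ± 0.14 in control and 0.09 ± 0.15 in deficient tumors, that of Mcm5 (10.36 to 11.07 over all arrays) 0.02 ± 0.14 and 0.24 ± 0.15, and that of Mcm7 0.01 ± 0.13 and -0.03 ± 0.13. Mcm3 read 10.76, 10.54 and 10.61, then 9.97, 9.94, 10.69, 10.88 and 10.67, then 9.74, 9.94, 10.11 and 10.36. All deficient tumors and control tumors 1 and 2 lay below every normal array, and control tumors 3 to 5 lay among or above them. Mcm3 was not called in either comparison (-0.21 ± 0.23 and -0.60 ± 0.24, adjusted p = 0.555 and 0.0628). In deficient tumors it was called lower without control tumor 1 (adjusted p = 0.0451), 2 (0.0408) or 4 (0.0492), arrays that enter this comparison only through the pooled spread.

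**Figure D3:**
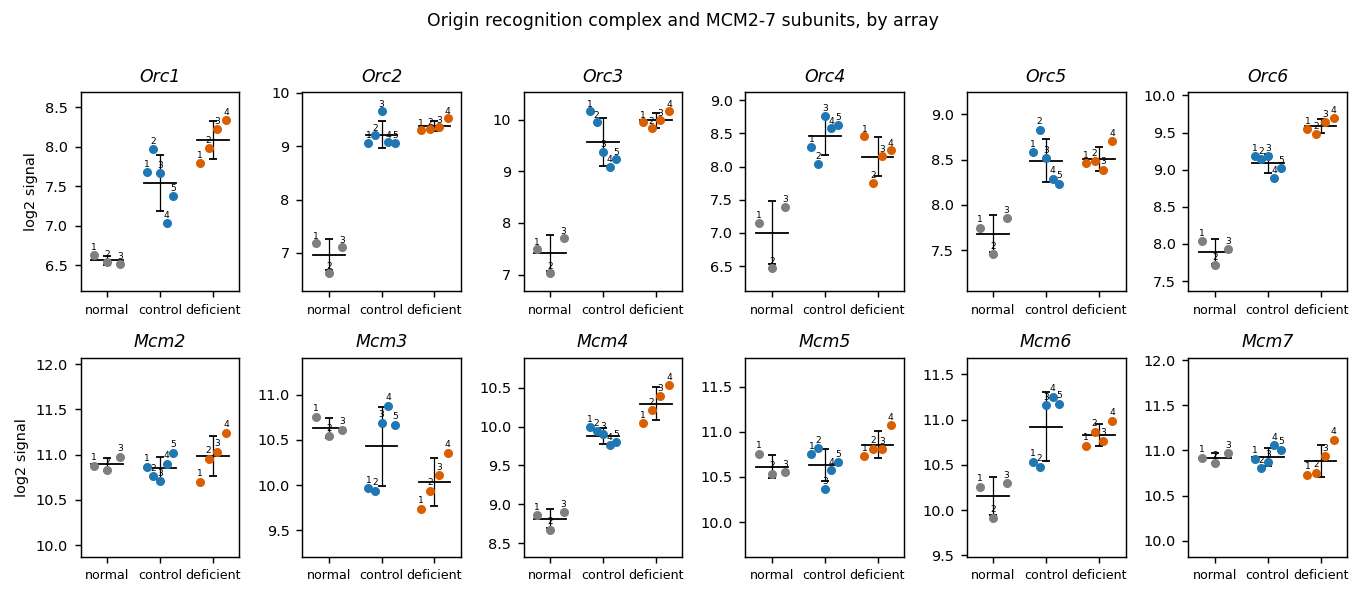
Log2 signal of the 6 ORC genes (top) and the 6 MCM2-7 genes (bottom) on each array (points, numbered by replicate; bars are the mean and SD of normal thymocytes, n = 3, control tumors, n = 5, and deficient tumors, n = 4; every axis has its own range). Every ORC gene is above normal on all 9 tumor arrays, as are Mcm4 and Mcm6, while Mcm2, Mcm5 and Mcm7 overlap and Mcm3 splits the control tumors.

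The remaining licensing genes did not pass the test in either comparison. Cdc6, the ATPase that joins ORC to load the helicase, read 8.69 to 9.06 in normal thymocytes, 8.11 to 9.49 in control tumors and 8.55 to 9.01 in deficient tumors. Cdt1, which brings MCM2-7 to the origin, read 9.96 to 9.99 in normal thymocytes against 9.14 to 10.18 and 9.78 to 10.51, a wider spread in the tumors. Gmnn, the inhibitor of Cdt1, read 6.81, 6.59 and 6.75, then 6.79, 6.56, 7.73, 7.38 and 7.56, then 6.98, 6.99, 7.0 and 7.21. The control tumors split, 1 and 2 lying at the level of the normal arrays and 3 to 5 above all others. Gmnn differed by 0.49 ± 0.23 in control tumors (adjusted p = 0.154) and was called there without control tumor 2 (0.65, adjusted p = 0.0313), with array weights (0.63, 0.0268) and without control tumors 1 and 2 (0.84, 0.000946).

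Of the 8 factors that fire origins, 5 rose in control and 7 in deficient tumors. Dbf4, the activator of the Cdc7 kinase, read 7.22, 6.85 and 7.48 in normal thymocytes, 8.74, 8.49, 9.46, 8.99 and 8.84 in control tumors and 8.91, 8.89, 9.17 and 8.89 in deficient tumors. Tumors of both kinds lay above normal thymocytes and overlapped each other (1.72 ± 0.20 and 1.78 ± 0.21, adjusted p = 5.25e-05 and 3.75e-05). Cdc7 itself read 7.23, 6.61 and 6.99, then 8.02, 7.81, 7.99, 7.57 and 7.66, then 8.73, 8.14, 8.43 and 8.29, so the 3 groups formed steps (0.87 ± 0.18 and 1.45 ± 0.19 over normal). Mcm10, which helps the helicase start, rose by 0.60 ± 0.12 and 0.91 ± 0.13. Cdc45, the third component of the moving helicase beside MCM and GINS, was not called, at 8.52 to 8.82 in normal thymocytes, 8.50 to 8.88 in control tumors and 8.74 to 8.85 in deficient tumors.

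The 4 GINS genes differed in size. Gins4 read 8.17, 8.07 and 8.27 in normal thymocytes, 9.59, 9.82, 9.06, 8.90 and 9.08 in control tumors and 9.72, 9.88, 9.91 and 9.84 in deficient tumors. It rose 2.17-fold and 3.18-fold (adjusted p = 0.000878 and 4.06e-05), and only control tumor 2 reached the deficient tumors' range. Gins1 rose by 0.68 ± 0.15 and 0.96 ± 0.15, although its call in control tumors was lost under another quantile normalization (adjusted p = 0.0672). Gins2 read 8.20, 8.09 and 8.25, then 8.56, 8.46, 8.16, 8.09 and 8.36, then 8.76, 8.70, 9.07 and 9.02, and Gins3 read 7.35 to 7.71, then 7.78 to 8.26, then 8.08 to 8.64. Both were called in deficient tumors (0.70 ± 0.15 and 0.82 ± 0.17), and not in control tumors (0.14 ± 0.15 and 0.44 ± 0.17, adjusted p = 0.526 and 0.0747). Between the tumor groups they differed by 0.56 and 0.39 (adjusted p = 0.0750 and 0.187). After another quantile normalization neither was called in deficient tumors (adjusted p = 0.0653 and 0.0573).

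Pola1, the catalytic subunit of the primer-making polymerase alpha, had the largest difference of all 48 genes. It read 6.37, 5.64 and 7.06 in normal thymocytes, 9.0, 9.03, 9.26, 8.81 and 8.65 in control tumors and 9.52, 9.27, 9.27 and 9.80 in deficient tumors. No groups overlapped, and normal thymocytes 2 was the lowest array. The rise was 6.03-fold in control and 8.62-fold in deficient tumors (2.59 ± 0.26 and 3.11 ± 0.27, adjusted p = 1.57e-05 and 3.54e-06). Its partner Pola2, the regulatory subunit, read 10.00, 9.86 and 9.46, then 9.88 to 10.26, then 9.84 to 10.19, and was not called (0.33 ± 0.16 and 0.29 ± 0.17).

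Primase divided in another way. Prim2, the large subunit, rose by 1.20 ± 0.16 and 1.61 ± 0.17. Prim1, the catalytic subunit, read 8.63, 7.99 and 8.60 in normal thymocytes, 8.79, 8.56, 10.00, 9.66 and 9.83 in control tumors and 9.15, 8.84, 9.06 and 9.37 in deficient tumors. Control tumors 3 to 5 were above all other arrays, while control tumors 1 and 2 were the lowest of the tumors. Prim1 was called in control tumors (0.96 ± 0.31, adjusted p = 0.0370) and not in deficient tumors (0.70 ± 0.32, adjusted p = 0.106). The call in control tumors held in 11 of 21 other settings. It was lost without any 1 of normal thymocytes 1, 2 and 3 (adjusted p = 0.0608, 0.181 and 0.0636) or of control tumors 3, 4 and 5 (0.0748, 0.0675 and 0.0669). In deficient tumors Prim1 was called higher with only the 2 groups compared (adjusted p = 0.0145), with array weights (0.0262) and without control tumors 1 and 2 (0.0091).

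Both polymerases that extend the strands had subunits that rose. Pole, the catalytic subunit of the leading-strand polymerase epsilon, read 8.25, 7.92 and 8.20, then 9.73, 9.67, 9.65, 9.63 and 9.64, then 9.92, 9.66, 9.86 and 9.98. The SD of the control tumors was 0.04, all tumors were above normal, and the rise was 2.91-fold and 3.32-fold (adjusted p = 3.41e-06 and 1.35e-06). Pole2, its second subunit, rose by 1.21 ± 0.20 and 1.99 ± 0.21. Pold3, an accessory subunit of polymerase delta, rose by 1.01 ± 0.18 and 1.65 ± 0.19.

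Polymerase delta's other subunits gave different pictures. Pold2 read 8.86, 8.80 and 8.71 in normal thymocytes, 10.67, 10.86, 9.40, 9.22 and 9.37 in control tumors and 10.69, 10.93, 10.98 and 11.00 in deficient tumors. Control tumors 1 and 2 lay at the level of the deficient tumors, and control tumors 3 to 5 lay between them and normal thymocytes. The rise was 1.11 ± 0.34 and 2.11 ± 0.35 (adjusted p = 0.0287 and 0.000480), and that in control tumors lost its call without normal thymocytes 1, 2 or 3 (adjusted p = 0.0702, 0.0867 and 0.0893) or control tumor 1 (0.0522). Pold1, the catalytic subunit, read 9.24, 9.10 and 9.18, then 9.29, 9.21, 8.85, 8.76 and 9.28, then 9.64, 9.58, 9.67 and 9.86. The deficient tumors lay above every normal array (0.51 ± 0.16, adjusted p = 0.0214), and the control tumors lay around them (-0.10 ± 0.15, adjusted p = 0.696). That call was lost without normal thymocytes 2 (adjusted p = 0.0732) or 3 (0.0528) or deficient tumor 4 (0.0626), and under another quantile normalization (0.194) or cyclic loess (0.311).

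The clamp loader rose in part. Rfc1, the large subunit that binds DNA, read 7.89, 6.23 and 7.62 in normal thymocytes, 9.34, 9.35, 9.43, 9.26 and 9.04 in control tumors and 9.45, 9.47, 9.34 and 9.56 in deficient tumors. The tumors lay close together and above every normal array, of which the second was far below the others (4.11-fold and 4.64-fold, adjusted p = 0.000161 and 7.90e-05). Rfc4 read 8.79, 8.75 and 8.79, then 9.78 to 10.57, then 10.38 to 10.69 (1.42 ± 0.18 and 1.72 ± 0.19). Rfc5 read 9.55, 9.75 and 9.75, then 10.76, 10.78, 9.53, 9.71 and 9.88, then 10.92, 10.77, 10.86 and 11.08. Control tumors 1 and 2 lay with the deficient tumors and control tumors 3 to 5 with normal thymocytes, and Rfc5 was called in deficient tumors (1.22 ± 0.28, adjusted p = 0.00407) but not in control tumors (0.45 ± 0.27, adjusted p = 0.256). The tumor groups differed by 0.78 ± 0.25 (adjusted p = 0.123).

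Rfc2 showed the opposite split. It read 9.27, 9.33 and 9.07 in normal thymocytes, 8.32, 8.36, 9.41, 9.25 and 9.25 in control tumors and 8.37, 8.64, 8.56 and 8.69 in deficient tumors. Again control tumors 1 and 2 lay with the deficient tumors, here below normal, and Rfc2 was not called (-0.31 ± 0.25 and -0.66 ± 0.26, adjusted p = 0.405 and 0.0602). In deficient tumors it was called lower without control tumor 1, 2 or 3 (adjusted p = 0.0334, 0.0359 and 0.0473). Rfc3 read 8.39 to 8.50, then 8.04 to 8.48, then 8.34 to 8.98. Pcna, the clamp itself, read 11.82, 11.70 and 11.76, then 11.46 to 12.13, then 11.99, 11.98, 12.03 and 12.19. Its deficient tumors were above every normal array by a margin that did not pass the test (0.29 ± 0.16, adjusted p = 0.173).

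No gene of single-strand binding, flap cutting or ligation was called. Rpa3, the small subunit of the single-strand binding protein RPA, read 8.33, 7.93 and 7.79 in normal thymocytes, 9.26, 9.01, 7.10, 6.46 and 7.46 in control tumors and 8.86, 9.06, 9.07 and 9.40 in deficient tumors. Its control tumors lay on both sides of normal, and their SD of 1.22 was the highest of the 48 genes. The difference was -0.16 ± 0.51 in control and 1.08 ± 0.54 in deficient tumors (adjusted p = 0.859 and 0.133). The control tumors enter the second of these only through the pooled spread. In deficient tumors Rpa3 was called higher with only the 2 groups compared (1.08 ± 0.18, adjusted p = 0.0008). It was also called there with array weights (0.0291) and without control tumors 1 and 2 (0.00222). Rpa1 and Rpa2, the larger RPA subunits, read 9.83 to 9.96 and 9.62 to 9.82 in normal thymocytes, 9.72 to 11.03 and 9.17 to 10.0 in control tumors, and 9.88 to 10.20 and 9.42 to 9.97 in deficient tumors. They differed by 0.42 ± 0.24 and -0.09 ± 0.21 in control tumors and by 0.10 ± 0.25 and -0.06 ± 0.22 in deficient tumors.

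Fen1, the nuclease that trims Okazaki flaps, read 9.46, 9.53 and 9.24, then 8.27, 8.42, 9.33, 9.28 and 9.62, then 8.72, 8.43, 8.90 and 8.93. Deficient tumors and control tumors 1 and 2 lay below every normal array, and the difference was not called (-0.43 ± 0.28 and -0.67 ± 0.29, adjusted p = 0.298 and 0.0879); it was called lower in deficient tumors without control tumor 1 (0.0463). Lig1, the ligase that seals the fragments, read 10.08 to 10.20, then 9.64 to 10.40, then 9.89 to 10.09. The CAF-1 subunits Chaf1a and Chaf1b, which place histones on new DNA, differed by 0.19 ± 0.16 and 0.03 ± 0.14 in control tumors and by 0.45 ± 0.17 and 0.30 ± 0.14 in deficient tumors (adjusted p = 0.0545 and 0.118). Chaf1a was called in deficient tumors without control tumor 1, 4 or 5 (adjusted p = 0.0490, 0.0441 and 0.0481).

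Of the fork protection genes, Clspn was called. Clspn, the adaptor that passes the signal of a stalled fork to the kinase Chek1, read 6.59, 5.77 and 6.73 in normal thymocytes, 7.78, 7.69, 7.56, 7.27 and 7.63 in control tumors and 8.25, 7.69, 8.15 and 8.40 in deficient tumors. All tumors were above normal (2.34-fold and 3.40-fold, adjusted p = 0.00127 and 7.77e-05). Tipin read 9.27, 8.44 and 8.46, then 8.48, 8.79, 10.54, 9.87 and 9.90, then 8.80, 8.76, 9.28 and 9.17, so that control tumors 3 to 5 stood alone at the top. Tipin was not called in control tumors (0.79 ± 0.39, adjusted p = 0.170). It was called there without control tumor 1 (1.05, adjusted p = 0.0436), with array weights (1.00, 0.0433) and without control tumors 1 and 2 (1.38, 0.00185). Timeless, its partner, read 7.85 to 8.28, then 7.65 to 8.64, then 7.92 to 8.27.

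The question of the study's design is what loss of Dnmt3a changes in these tumors. Between deficient and control tumors, 0 of 48 replication genes passed the test in either direction, where 0.59% of all genes were higher and 0.228% lower. At an unadjusted p under 0.05, 17 were higher and 0 lower, against 12.6% and 7.58% of all genes. The median difference was 0.24 over the 48 genes, of which 35 were positive and 13 negative, and -0.01 over all genes; over the 48 it was 0.11 after a second quantile normalization and 0.10 after cyclic loess. By role, differences ran from -0.39 (Mcm3) to 0.54 (Orc1) in licensing, from 0.06 (Dbf4) to 0.59 (Cdc7) in firing, from -0.26 (Prim1) to 0.99 (Pold2) in the polymerases, from -0.35 (Rfc2) to 0.78 (Rfc5) in the clamp and its loader, and from -0.33 (Rpa1) to 1.24 (Rpa3) in strand processing. CAF-1 genes differed by 0.26 and 0.27, and the fork protection genes by -0.51 (Tipin) to 0.54 (Clspn). Every deficient tumor was above every control tumor for 8 of the 48 (Mcm4, Orc6, Gins2, Pola1, Pold1, Pold3, Pole2 and Cdc7), where 3.8% of all genes were, and below for 0, where 2.35% of all genes were.

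These 8 genes differed by 0.42 to 0.79. Orc6 read 8.89 to 9.19 in control and 9.48 to 9.69 in deficient tumors (0.50, 95% interval 0.25 to 0.76, adjusted p = 0.0688). Pole2 read 7.66 to 8.41 and 8.61 to 9.01 (0.79, 0.39 to 1.19, adjusted p = 0.0695). Pold1 read 8.76 to 9.29 and 9.58 to 9.86 (0.61, 0.31 to 0.91, adjusted p = 0.0626), the lowest adjusted p of the 48. For genes that were level, the interval bounds the difference: Mcm7 -0.04 (-0.30 to 0.21), Orc5 0.02 (-0.30 to 0.34) and Cdc45 0.10 (-0.16 to 0.35). The largest differences, Rpa3 at 1.24 (0.22 to 2.26) and Pold2 at 0.99 (0.32 to 1.67), had wide intervals and overlapping groups. Without control tumor 1, 8 of the 48 genes were called higher, where 4.08% of all genes were, and without control tumor 2, 9 were, against 5.71%.

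**Figure D4:**
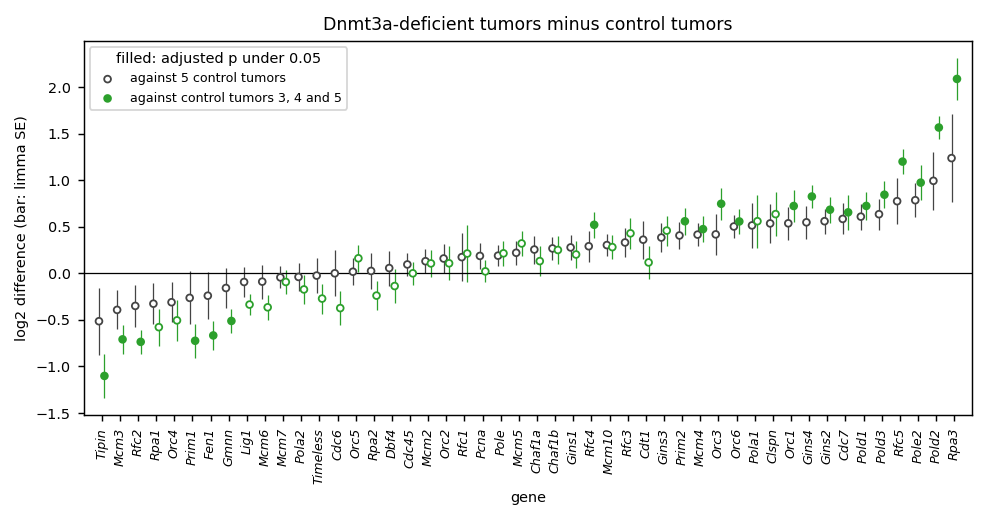
Log2 difference of deficient tumors from control tumors for each replication gene, in order of size (y axis; bars are limma standard errors), against all 5 control tumors (grey) and against control tumors 3, 4 and 5 (green; filled points have an adjusted p under 0.05). No grey point is filled; 15 green points are filled above 0 and 6 below, from -1.10 for Tipin to 2.09 for Rpa3.

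The control tumors were the most spread group. The median SD over the 48 genes was 0.28 in control tumors, 0.14 in normal thymocytes and 0.16 in deficient tumors, and over all genes 0.28, 0.19 and 0.19. The highest SDs of control tumors were those of Rpa3 (1.22), Tipin (0.85), Pold2 (0.79), Prim1 (0.65), Fen1 (0.60), Rfc5 (0.60), Cdc6 (0.56) and Rfc2 (0.53). In each of these 8 genes, control tumors 1 and 2 lay on 1 side of control tumors 3 to 5. The 8 were picked for their spread over these same arrays, which favours such a split, and its share among all genes was not counted.

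**Figure D5:**
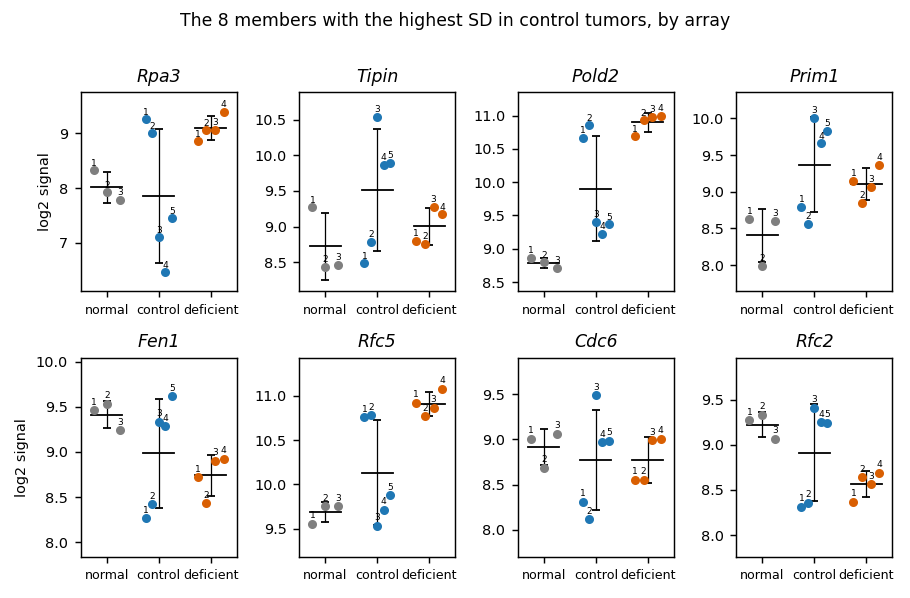
Log2 signal by array of the 8 replication genes with the highest SD in control tumors (points, numbered by replicate; bars are the mean and SD of normal thymocytes, n = 3, control tumors, n = 5, and deficient tumors, n = 4; every axis has its own range). Control tumors 1 and 2 lie above control tumors 3 to 5 for Rpa3, Pold2 and Rfc5 and below them for Tipin, Prim1, Fen1, Cdc6 and Rfc2.

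Leaving out control tumors 1 and 2, a choice made after their profiles were seen, left 3 control arrays. The 2 left out stood closest to the deficient tumors of all control tumors, so leaving them out favours differences between the tumor groups. Calls made without both, here and elsewhere in the text, rest on that choice and only describe these arrays. Against these, 15 replication genes were higher in deficient tumors, where 16.1% of all genes were, and 6 were lower, where 9.24% were. The higher genes were Mcm4, Orc1, Orc3, Orc6, Gins2, Gins4, Prim2, Pold1, Pold2, Pold3, Pole2, Rfc4, Rfc5, Rpa3 and Cdc7, led by Rpa3 (2.09, adjusted p = 0.000101), Pold2 (1.57, 1.93e-05) and Rfc5 (1.20, 0.000113). The lower ones were Tipin (-1.10), Rfc2 (-0.74), Prim1 (-0.72), Mcm3 (-0.71), Fen1 (-0.67) and Gmnn (-0.51). The median difference was 0.21. Against normal thymocytes the same change gave 26 higher and 1 lower in control tumors, where 12.9% and 12.5% of all genes were, Rpa3 being the lower (-1.01, adjusted p = 0.00895). In deficient tumors it gave 29 higher and 3 lower, against 21.5% and 23.0% of all genes.

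Genes that work beside the machinery were counted from lists chosen with earlier results of these data known. Of all genes, 13.0% were higher and 11.3% lower in control tumors, and 18.7% and 19.0% in deficient tumors. Each list count here and in the next paragraph stands beside these shares. Of 28 accessory replication factors, 16 were higher and 1 lower in control tumors, and 20 and 3 in deficient tumors, led by Rif1, which sets the timing of origins (2.61 ± 0.17 and 3.47 ± 0.17), and the remodeler subunit Baz1a (2.24 ± 0.28 and 2.72 ± 0.30). Of 13 checkpoint genes, 6 were higher and 1 lower in each tumor group. The checkpoint kinases Atr (2.66 ± 0.21 and 3.28 ± 0.22) and Chek1 (2.76 ± 0.28 and 3.20 ± 0.29) were among the higher. Rad9a, of the clamp that activates Atr, was the lower (-1.05 ± 0.15 and -1.01 ± 0.16), while Hus1, of the same clamp, was higher (0.94 and 2.00). Nucleotide supply had 8 of 17 higher and 1 lower in control tumors and 9 and 1 in deficient tumors. Dctd, which makes dUMP for thymidylate, was the highest (1.99 ± 0.21 and 2.66 ± 0.22), and Dck, the salvage kinase for deoxycytidine, was the lower (-1.08 ± 0.22 and -1.72 ± 0.23).

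Kinases and ligases of S-phase entry had 7 of 16 higher and 3 lower in control tumors, and 11 and 3 in deficient tumors. Dtl, the ligase adaptor that destroys Cdt1 in S phase, rose by 1.94 ± 0.22 and 2.60 ± 0.23, while the inhibitor Cdkn1b was lower (-1.21 ± 0.28 and -1.12 ± 0.29), as was the kinase Cdk2 (-0.76 ± 0.24 and -1.26 ± 0.25). The Cdk2 call in control tumors was lost without normal thymocytes 1, 2 or 3 (adjusted p = 0.120, 0.0631 and 0.0867), without control tumor 1 or 2 (0.0660 and 0.0525) and without both (-0.39, 0.0618). Histone supply and chromatin assembly had 8 of 15 higher and 3 lower, then 9 and 3, with Atrx (2.48 ± 0.39 and 3.06 ± 0.41) and the histone chaperone subunit Supt16 (2.31 ± 0.28 and 2.33 ± 0.29) high. Ubn1 (-1.01 and -1.02) and Daxx (-0.63 and -0.61) were lower, and each Daxx call held in 14 of 21 other settings. Of 11 repair polymerases, 6 and 8 were higher, led by Polq (1.92 ± 0.21 and 2.58 ± 0.22), and 1 was lower in each, Dntt, the template-free polymerase of antigen receptor rearrangement (-4.79 ± 0.87 and -4.00 ± 0.91). Mitochondrial DNA replication had 5 of 11 higher and 1 lower, Polg, in control tumors and 7 and 0 in deficient tumors. Genes of proliferation and mitosis, for comparison, had 11 and 15 of 19 higher and 0 lower. Counts of every list but the checkpoint genes depended on scaling, and some are given here. After second quantile and cyclic loess normalization, accessory factors had 13 and 14 higher and 3 and 2 lower in control tumors. Histone supply then had 7 higher in each and 3 and 5 lower. In deficient tumors accessory factors had 16 higher and 3 lower after each, and S-phase entry 9 and 8 higher and 3 and 4 lower. In deficient tumors, after second quantile and cyclic loess normalization, mitochondrial replication had 4 and 5 higher and 1 lower in each, repair polymerases 5 and 6 higher and 2 and 1 lower, and mitosis 13 and 11 higher and 2 lower in each; in control tumors mitosis had 1 lower after cyclic loess.

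Between deficient and control tumors, 0.59% of all genes were higher and 0.228% lower. From these lists 4 genes were called, all higher: Rif1 (0.86 ± 0.15, adjusted p = 0.0294), the helicase Recql4 (0.74 ± 0.14, 0.0393), the nuclease Dna2 (0.68 ± 0.14, 0.0453) and cyclin E2, Ccne2 (1.21 ± 0.24, 0.0453). Their calls held in 13, 8, 8 and 9 of the 21 other settings tried, and the adjusted p ran up to 0.114, 0.139, 0.148 and 0.148. After a second quantile normalization all 4 calls were lost. After cyclic loess those of Rif1, Recql4 and Dna2 were lost and that of Ccne2 was kept. Rif1 lost its call without control tumor 4 (0.0699) or deficient tumor 1 (0.0629), 3 (0.0588) or 4 (0.114). Recql4 lost its call without any 1 of the normal arrays, control tumors 3 to 5 or deficient tumors 3 and 4 (0.0542 to 0.139). Dna2 lost it without any 1 of the normal arrays, control tumors 3 and 4 or deficient tumors 1, 3 and 4 (0.0684 to 0.148), and Ccne2 without any 1 of the normal arrays, control tumors 3 to 5 or deficient tumors 1, 3 and 4 (0.0561 to 0.148). Against control tumors 3 to 5 alone, the differences were 0.82, 0.83, 0.68 and 1.53 and all 4 were called.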

How the data were processed

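The deposited values are log2 signals of 23858 probe sets on 12 Affymetrix arrays. The submitters' processing notes name Affymetrix Expression Console and RMA as what the authors used, without versions, and the quartiles still differ between arrays. Whether all 12 arrays were normalized in 1 run is not stated, so a difference between groups may hold a difference in scale. RNA was extracted with Trizol, repurified on columns, amplified and labelled with biotin, per the labels' protocols. The platform annotation gave 20870 probe sets 1 gene symbol, 1453 several and 1535 none. Those with several or none were left out. For each of 19309 genes the probe set with the highest mean over the 12 arrays was kept. The values were used as deposited. A model with a mean for each of the 3 groups was fitted to all genes with limma 3.58.1 in R 4.3.3 (9 residual degrees of freedom), with Benjamini-Hochberg adjustment over all genes in each comparison and a call at an adjusted p under 0.05. The fit was tested on simulated data. All adjusted p-values in the text are from limma. The number of arrays limits the precision, and a signal is compared between arrays for 1 gene, not between genes.

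All members are accounted for, those with the largest called differences of each role on every array. From other lists up to 3 called genes with the largest differences could be named. Rad9a, Hus1, Cdkn1b, Cdk2, Polg, Ubn1 and Daxx were added after their values were seen. Promoters are of the 3 members with the largest and the 3 with the smallest absolute mean difference from normal thymocytes. The members and the lists were chosen with earlier results of these data known. Alternatives were other normalizations, a filter on dim genes, the mean of a gene's probe sets, other limma settings and leaving out each array. Some genes of the other lists were not analysed here, and the counts give the number measured. Replicate numbers were not taken to pair the samples.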

Additional observations from a re-analysis of the deposited data

Results flagged for a closer look

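Of 96 groups of 4 or 5 arrays examined, 4 held an array whose distance to the nearest other array of its group was large against the whole range of the group; chance gives about 1 in 20. Orc2 was 9.65 in control tumor 3 against 9.06 to 9.21 in the other control tumors. Gins1 was 8.49 in the same tumor against 7.96 to 8.10. Gmnn was 7.21 in deficient tumor 4 against 6.98 to 7.0 in the other deficient tumors. Dbf4 was 9.17 in deficient tumor 3 against 8.89 to 8.91.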

How the results depend on the processing

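Of the calls against normal thymocytes, 19 of 23 in control and 22 of 26 in deficient tumors held in all 21 other settings tried; the exceptions were Mcm6, Gins1, Prim1 and Pold2, and Mcm6, Gins2, Gins3 and Pold1. No difference with a call changed sign. The cause of the changes below was not tested. In control tumors against normal thymocytes the median difference of the 48 genes was 0.45 after a second quantile normalization, 0.62 with array weights and 0.64 leaving out control tumors 1 and 2, which also gave 1 lower member. Leaving out 1 array gave a median of 0.53 to 0.62, 20 to 24 higher members and 1302 to 2351 lower genes in all. In deficient tumors the median was 0.44 after second quantile and 0.50 after cyclic loess normalization, which moved the median of all genes from -0.10 to -0.0011. Lower members numbered 3 after either of these, with array weights, with only the 2 groups compared and leaving out control tumors 1 and 2, 1 without the dimmest 50% of genes, and 0 to 3 leaving out 1 array. Lower genes numbered 2006 without the dim genes and 2425 to 3870 leaving out 1 array.

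Between the tumor groups, higher members numbered 4 after median centring (Orc6, Gins2, Pold1 and Pole2), 1 without dim genes (Pold1), 15 with array weights, 15 leaving out control tumors 1 and 2, which gave 6 lower, and 0 to 9 leaving out 1 array. The median was 0.11 after second quantile and 0.10 after loess normalization. Higher genes numbered 331 after median centring, 66 after second quantile normalization, 2250 with array weights, 0 with only the 2 groups compared, 3102 leaving out both control tumors, and 11 to 1103 leaving out 1 array. Lower genes numbered 1078 with array weights, 1 with only the 2 groups, 1784 leaving out both and 5 to 379 leaving out 1 array. Same-numbered arrays shared little (r of their deviations -0.13 to 0.34, over 0.1 in 1 of 10 pairs; 3 of 12 arrays correlated best with their own number). With the replicate block, 22 members were higher in control tumors (Prim1 lost, adjusted p = 0.0599), 26 higher and 3 lower in deficient tumors, and 0 between the tumor groups, where 56 genes were higher. Signal over background limits dim genes, and 3 to 5 arrays a group limit the rest.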
